A study of Mus musculus with 2 samples.

Results

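The mitochondrial ribosomal protein genes are the protein-coding genes of the mouse annotation whose symbol begins with Mrpl or Mrps followed by a number. The rule took 78 of 21938 coding genes, counted over the autosomes and both sex chromosomes. They lie on 17 chromosomes, none on X or Y, and are 789 to 121773 bp long, with a median of 7899.5 bp against 17425 bp for all coding genes. Their products are named for the ribosome inside mitochondria, and 51 were counted with its large subunit and 27 with its small subunit. The 27 include Mrps36, whose product has since been assigned to another complex. Mrps18a and Mrps30 are among the 51 of the large subunit, where structures of the mammalian mitochondrial ribosome place their products despite the names.

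The mitochondrial ribosome translates the few proteins encoded by mitochondrial DNA, which are core subunits of the respiratory chain. Its RNAs come from mitochondrial DNA, whereas all of its proteins are encoded in the nucleus, made on cytosolic ribosomes and imported. It combines proteins that have a bacterial counterpart with proteins found only in mitochondria. H3K79me2, dimethylation of lysine 79 of histone H3, is placed by the methyltransferase Dot1l and is found over the first part of transcribed genes.

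H3K79me2 was mapped by chromatin immunoprecipitation and sequencing in unstimulated macrophages grown from the bone marrow of C57BL/6J mice. The data are 1 group of 2 biological replicates with no other genotype, treatment or time, and the labels record no sex and no age. The replicates carry the same donor identifier and nothing says that they came from separate animals or cultures, so the spread between them may be technical. No p-value is given, because 1 group allows no comparison between conditions.

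The authors deposited 4 peak lists on the mm10 build: 1 from each replicate alone, 1 from the pooled alignments and 1 made from both replicates, here called the replicated list. They hold 22979 peaks over 63.5 Mb in replicate 1, 31577 over 114 Mb in replicate 2, 26838 over 106 Mb in the pooled list and 15559 over 93.2 Mb in the replicated list. Read counts are not part of the files, and library depth is therefore unknown. Of 10 macrophage marker genes, 9 had peaks over their start in the replicated list, and none of 5 T cell, 4 B cell, 5 neutrophil and 4 fibroblast markers did. Below, marked means that peaks of a list covered 200 bp or more of the first 3 kb of a gene, measured from its outermost annotated 5′ end. Where no such peak was called the gene is unmarked, and the modification may still have been there. Fold means the authors' own enrichment of a peak relative to the control, and it ranks genes within 1 list.

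The promoters of 3 marked and 3 unmarked genes are shown first, because the text returns to the position of the peaks relative to these starts. Each runs from 250 bases before to 50 bases after the start in RefSeq (GRCm38.p6), 5′ to 3′ on the gene's strand, and capitals mark a match to a motif described further on. The marked genes are those with the highest fold. They are Mrpl1 (chr5:96209865-96210164, plus strand), which encodes the protein of the mobile L1 stalk, Mrpl49 (chr19:6057706-6058005, minus strand), a protein found only in mitochondria, and Mrpl12 (chr11:120484387-120484686, plus strand), the protein of the flexible stalk that recruits translation factors.
Mrpl1: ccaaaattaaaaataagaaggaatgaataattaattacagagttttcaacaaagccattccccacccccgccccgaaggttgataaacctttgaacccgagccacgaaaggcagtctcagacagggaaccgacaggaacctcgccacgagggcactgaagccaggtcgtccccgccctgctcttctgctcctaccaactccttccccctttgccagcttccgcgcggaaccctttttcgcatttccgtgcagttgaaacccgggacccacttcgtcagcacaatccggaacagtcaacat
Mrpl49: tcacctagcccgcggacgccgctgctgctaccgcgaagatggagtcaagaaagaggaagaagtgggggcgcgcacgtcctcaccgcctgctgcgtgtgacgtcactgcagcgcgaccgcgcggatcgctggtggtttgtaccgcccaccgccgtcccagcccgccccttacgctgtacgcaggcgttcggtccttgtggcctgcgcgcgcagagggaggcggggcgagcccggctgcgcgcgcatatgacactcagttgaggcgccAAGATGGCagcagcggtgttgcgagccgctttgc
Mrpl12: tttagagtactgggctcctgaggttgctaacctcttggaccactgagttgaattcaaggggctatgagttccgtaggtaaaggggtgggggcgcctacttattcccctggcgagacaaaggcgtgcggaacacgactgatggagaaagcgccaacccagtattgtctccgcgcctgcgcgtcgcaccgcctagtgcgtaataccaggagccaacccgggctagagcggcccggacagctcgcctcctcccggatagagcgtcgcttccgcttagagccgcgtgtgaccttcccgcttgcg
The unmarked genes are the first in symbol order that had no peak. They are Mrpl11 (chr19:4962056-4962355, plus strand), whose product lies at the base of the stalk, Mrpl16 (chr19:11770165-11770464, plus strand), a conserved protein near the peptidyl transferase centre, and Mrpl23 (chr7:142532782-142533081, plus strand), which sits at the exit of the peptide tunnel.
Mrpl11: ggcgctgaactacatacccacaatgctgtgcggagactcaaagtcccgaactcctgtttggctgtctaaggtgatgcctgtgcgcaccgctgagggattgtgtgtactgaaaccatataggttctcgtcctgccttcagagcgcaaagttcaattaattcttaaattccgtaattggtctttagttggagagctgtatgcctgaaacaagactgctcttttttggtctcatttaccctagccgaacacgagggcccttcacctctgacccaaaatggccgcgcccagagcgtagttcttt
Mrpl16: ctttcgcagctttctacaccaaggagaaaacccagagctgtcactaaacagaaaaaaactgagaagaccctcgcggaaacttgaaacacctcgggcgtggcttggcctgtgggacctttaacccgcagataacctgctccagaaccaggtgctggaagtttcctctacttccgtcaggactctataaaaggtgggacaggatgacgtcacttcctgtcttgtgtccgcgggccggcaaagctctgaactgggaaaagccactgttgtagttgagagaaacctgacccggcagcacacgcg
Mrpl23: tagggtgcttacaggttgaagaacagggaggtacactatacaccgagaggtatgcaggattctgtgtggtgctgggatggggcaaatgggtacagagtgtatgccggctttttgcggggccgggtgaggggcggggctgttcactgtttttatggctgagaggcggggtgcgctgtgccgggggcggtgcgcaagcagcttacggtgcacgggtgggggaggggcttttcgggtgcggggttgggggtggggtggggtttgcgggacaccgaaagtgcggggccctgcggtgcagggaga
None of these 6 stretches but that of Mrpl49 holds a motif match.

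H3K79me2 peaks covered the start of most mitochondrial ribosomal protein genes. In the replicated list 60 of 78 genes (76.9%) were marked, against 30.3% of all coding genes. The pooled list marked 68 of 78 (87.2%), against 34.3% of coding genes. Replicate 1's list marked 49 of 78 (62.8%), against 27.2%, and replicate 2's list marked 69 of 78 (88.5%), against 35.6%. In every list the share was above that of all coding genes, and replicate 1 lacked 20 genes that replicate 2 marked. All 49 genes of replicate 1 were among those of replicate 2, so 49 of 78 were marked in both, against 27.2% of coding genes. The remaining 9 genes were marked in neither.

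**Figure D1:**
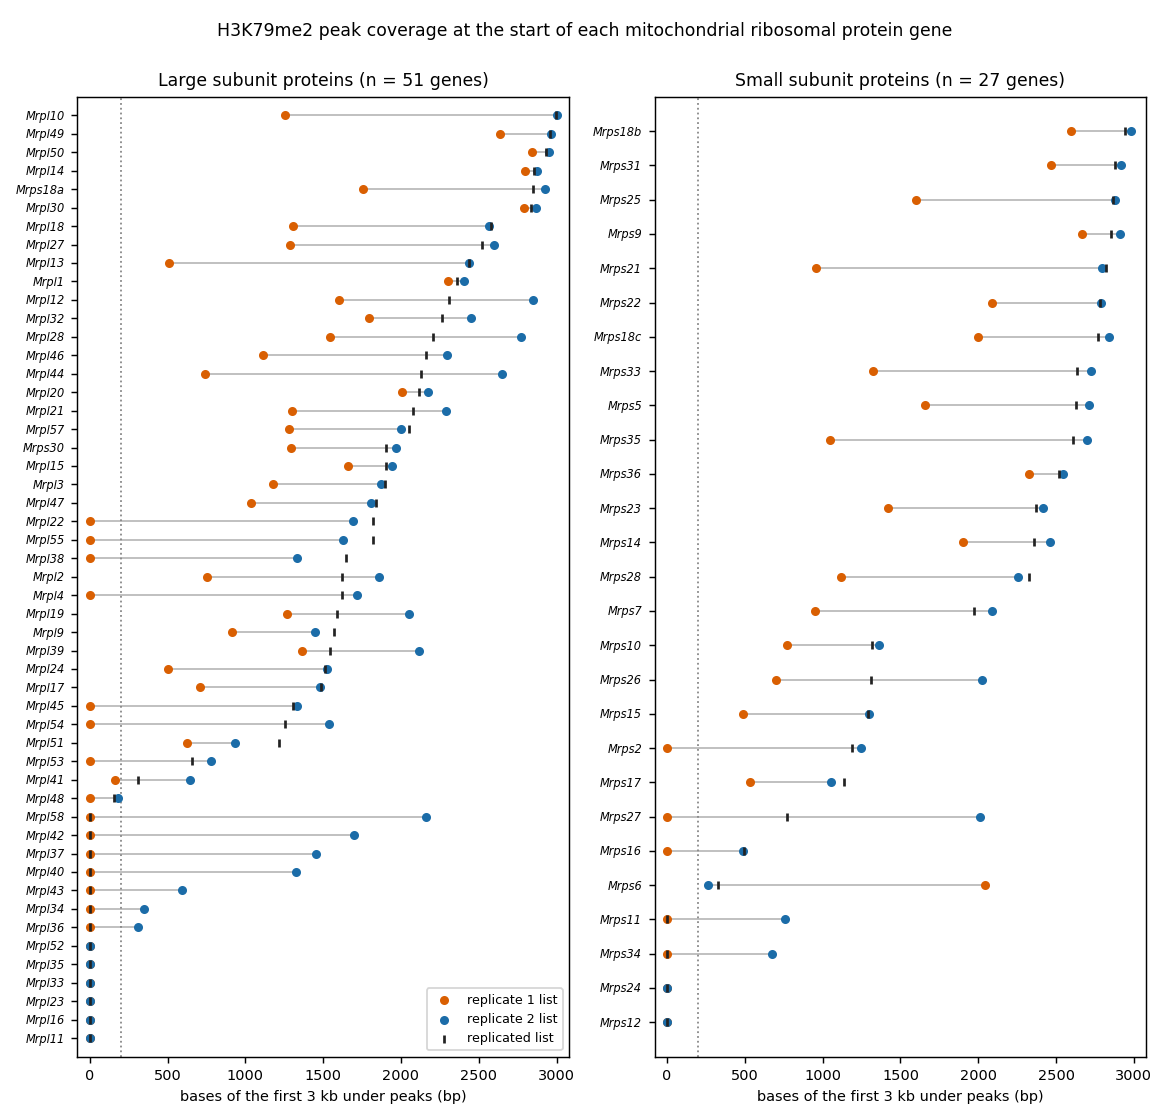
Bases of the first 3 kb (x axis, bp) of each of the 78 genes under replicate 1's list (orange), replicate 2's list (blue) and the replicated list (black tick), with a dotted line at the 200 bp needed to call a gene marked. Blue lies to the right of orange at nearly every gene, Mrps6 being reversed, and 19 of the 20 genes marked in replicate 2 alone sit at 0 in replicate 1.

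The share was also read within groups of coding genes that resemble the members. A CpG-rich start, which is common at housekeeping genes, was found at 62 of 78 members (79.5%) and 44.4% of all coding genes. Among genes with such a start, 50 of 62 members (80.6%) and 54.1% of coding genes were marked. Without one, 10 of 16 members and 11.4% of coding genes were marked. In the length range that holds the middle of the members, 4494 to 12533 bp, 30 of 38 members (78.9%) and 24.9% of coding genes were marked. Restricting that range to CpG-rich starts gave 26 of 30 members (86.7%) and 55.2% of coding genes. Where no other coding gene overlapped or started within 3 kb, 28 of 35 members (80.0%) and 26.2% of coding genes were marked. The members' share thus lay above the background in each of these groups, by a smaller margin where starts were CpG-rich.

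The peaks were present but ranked low. The fold over the 60 marked genes ran from 3.42 to 17.5 with a median of 6.49, against a median of 11.9 over all 6658 marked coding genes. Ranked among those genes, the median member stood at percentile 20.6. Only 6 of the 60 reached the median of marked coding genes, none was in the highest 10% and 16 were in the lowest 10%. The 81 marked genes of the 85 cytosolic ribosomal proteins had a median percentile of 51.1, and the 70 marked genes of 85 respiratory chain subunits and relatives one of 49.5. Among lists of mitochondrial translation, the medians were 24.0 over 5 marked aminoacyl-tRNA synthetase genes, 29.99 over 11 translation factor genes and 40.0 over 11 assembly genes. The 5 mitochondrial ribosome genes with other symbols, all marked, stood higher, at 46.8. Within the length range above, the marked members had a median percentile of 27.1 and marked coding genes one of 43.8. With CpG-rich starts only, these were 27.1 and 45.2. When peaks below the replicated list's median fold of 7.37 were dropped, 22 of 78 members (28.2%) were marked against 22.3% of coding genes, a share near the background.

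**Figure D2:**
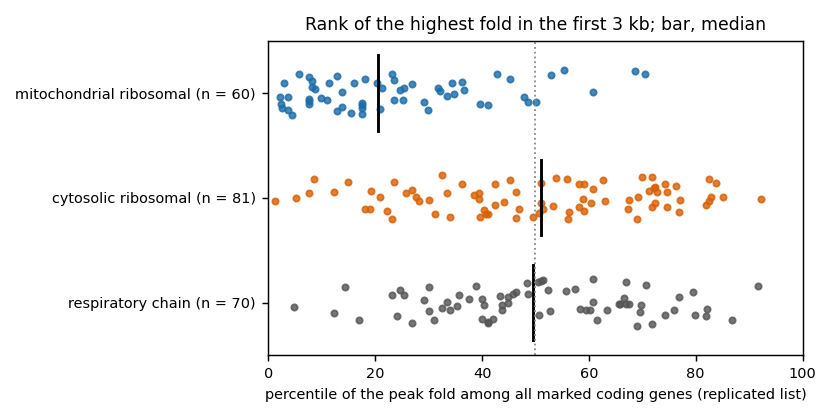
Percentile of the highest fold in the first 3 kb among all marked coding genes of the replicated list (x axis, percent), 1 point per marked gene, with the median as a black bar. The mitochondrial ribosomal genes gather at the left with a median of 20.6, whereas the cytosolic ribosomal and respiratory chain genes spread around the dotted line at 50.

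Mrpl1 had the highest fold, 17.5 (percentile 70.6), on chromosome 5 from 96209493 to 96266727. Of its first 3 kb, 2301 bp lay under replicate 1's list and 2402 bp under replicate 2's. Its peaks went far into the gene, with 14046 bp of 57235 bp (24.5%) covered in the replicated list, 10752 bp in replicate 1 and 15300 bp in replicate 2. No other member had as many covered bases. Mrpl49, on chromosome 19 from 6053622 to 6057785, followed at a fold of 16.8, with 2639 bp in replicate 1 and 2961 bp in replicate 2. It overlaps Syvn1, an E3 ubiquitin ligase gene, and starts 58 bp from Fau, and the lists do not tell which gene a peak belongs to.

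Mrpl12, on chromosome 11 from 120484613 to 120489065, had a fold of 14.7, with 1603 bp of the first 3 kb in replicate 1 and 2851 bp in replicate 2. Mrpl32 (fold 13.2) encodes a conserved large-subunit protein that the m-AAA protease trims after import. The 13.2 belongs to a peak that lies mostly before the start and ends 13 bp after it. The peak over the gene itself had 12.7. Its first 3 kb held 1797 bp in replicate 1 and 2449 bp in replicate 2. Next came Mrpl15 at 12.6, Mrpl28 at 12, Mrpl50 at 11.6 and Mrpl20 at 11.5, of which Mrpl50 encodes a protein found only in mitochondria and the other 3 encode conserved ones. Mrps36, at 11, encodes a protein that work in human and yeast cells has since assigned to the α-ketoglutarate dehydrogenase complex. Mrps18c, at 10.4, completed the 10 highest, and it is the small-subunit member of a family of 3 paralogs that is closest to bacterial S18. These 10 genes were marked in both replicates.

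The 3 Mrps18 paralogs occupy different places in the ribosome and were all marked. Mrps18a, assigned to the large subunit, had 1753 bp in replicate 1 and 2926 bp in replicate 2. Mrps18b, in the small subunit, had 2597 and 2983 bp, and Mrps18c had 2000 and 2842 bp. Peaks of the replicated list covered 87.7% of Mrps18b (5270 of 6011 bp), the highest share of any member. The share was 32.3% (5791 bp) at Mrps18a and 68.3% (3993 bp) at Mrps18c. Mrps30, the other large-subunit protein with a small-subunit name, had 1292 bp in replicate 1 and 1970 bp in replicate 2.

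By subunit, 37 of 51 large-subunit genes (72.5%) and 23 of 27 small-subunit genes (85.2%) were marked in the replicated list. Replicate 1 gave 29 and 20, and replicate 2 gave 44 and 25. The order turned when peaks below the median fold were dropped, with 17 of 51 (33.3%) and 5 of 27 (18.5%). Genes of proteins with a bacterial counterpart were marked in 36 of 46 cases (78.3%) and genes of mitochondria-specific proteins in 24 of 32 (75%). Their order turned between the lists, with 67.4% and 56.2% in replicate 1, 84.8% and 93.8% in replicate 2 and 82.6% and 93.8% in the pooled list. The replicates disagreed most on the mitochondria-specific proteins of the large subunit, of which 9 of 21 were marked in replicate 1 and 19 of 21 in replicate 2. The 11 mitochondria-specific small-subunit genes were marked in 9 and 11 cases. These differences between classes are counts of a few genes and were not tested.

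Peaks began shortly after the start and faded within the first 3 kb. From the outermost annotated start to the first covered base the median distance was 216.5 bp over the 60 marked members and 377 bp over all marked coding genes. Only 3 members, Mrpl32, Mrpl47 and Mrps21, were covered at the start base itself (5%, against 8.02% of marked coding genes). At Mrpl32 and Mrpl47 the block over that base lay mostly before the start and was shared with an opposite-strand neighbour, Psma2 and Ndufb5. Of the 69 members with a RefSeq promoter, 52 marked and 17 unmarked, 55 had none of its 300 bases under the replicated list. This count is thus not one of marked genes alone, and the share over all coding promoters is not given. At 2 members all 300 bases were covered, Mrps21 and the unmarked Mrpl48, whose start lies under a block over Rab6a. Coverage over marked members peaked at 91.3% of bases between 1000 and 1250 bp, fell to 43.7% between 2750 and 3000 bp and to 16.7% between 4750 and 5000 bp. Over all marked coding genes it peaked later, at 90.3% between 1500 and 1750 bp, and was still 78.8% and 59.8% in the other bins named. Cytosolic ribosomal protein genes had 44.4% and 14.3% in those bins. These shares count bases past the gene end. With bases inside genes only, these bins held 46.0% and 20.9% for the members, 60.3% and 34.7% for the cytosolic genes and 80.5% and 64.1% for coding genes.

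**Figure D3:**
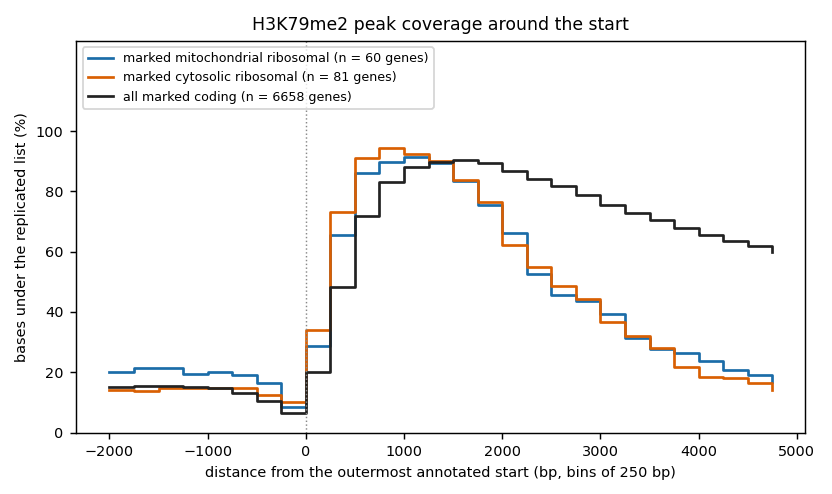
Percent of bases under the replicated list (y axis) in bins of 250 bp from 2000 bp before to 5000 bp after the outermost annotated start (x axis, bp), for marked mitochondrial ribosomal, marked cytosolic ribosomal and all marked coding genes. Bases past the gene end are counted, and the ribosomal curves both fall from above 90% to below 20%, while the curve of all marked coding genes ends at 59.8%.

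Within the genes, the covered part was short and lay at the 5′ end. The median covered part was 2146.5 bp over the marked members and 6118.5 bp over all marked coding genes. As a share of the gene the medians were 28.8% and 33.9%. Marked coding genes were longer, at a median of 24425 bp against 7899.5 bp for the marked members. Within the length range used above, 4494 to 12533 bp, the median covered parts were closer, at 2230.5 and 3508 bp. As a share of the gene they were 30.2% and 43.8% there. In 35 of the 60 marked members every covered base of the gene fell in the first 3 kb. For Mrpl41, Mrpl53 and Mrpl54 this was fixed, because these genes are shorter than 3 kb. Peaks covered more than 50% of 13 genes, more than 90% of none and less than 10% of 7. Shares over all coding genes are not given for these counts. Over the 60 genes, whose peaks come from the same list, the Spearman coefficient between gene length and covered bases was 0.39. Covered percent had one of -0.66 with length, which is its own denominator. Exons of marked members were covered at 18.2% of their bases and introns at 21.2%.

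After Mrpl1, the most covered bases were found at Mrps9 (11330 bp), a conserved small-subunit protein gene, and Mrpl14 (8195 bp), a conserved large-subunit gene that overlaps Tmem63b. Mrpl33 (6514 bp), Mrpl50 (6287 bp), Mrps18a (5791 bp) and Mrps18b (5270 bp) came next, before Mrps31 (5088 bp), Mrps28 (4987 bp) and Mrpl20 (4519 bp). At Mrps9, whose gene is 54451 bp long on chromosome 1, replicate 1 covered 9078 bp of the gene in all and replicate 2 15068 bp. In the first 3 kb, which was nearly full in both, they gave 2664 and 2908 bp.

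The lowest covered share among marked members was 1.09%, at Mrps27, which encodes a pentatricopeptide repeat protein of the small subunit. Its gene is 70777 bp long, and only 771 bp at the start were covered in the replicated list. Mrps6 followed at 3.62%, Mrps28 at 4.10%, Mrpl3 at 7.12% and Mrpl39 at 8.49%. The longest member, Mrps28 (121773 bp), is among them although it is also among the 10 with the most covered bases. Mrpl3 and Mrpl39 are 26650 and 18167 bp long.

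**Figure D4:**
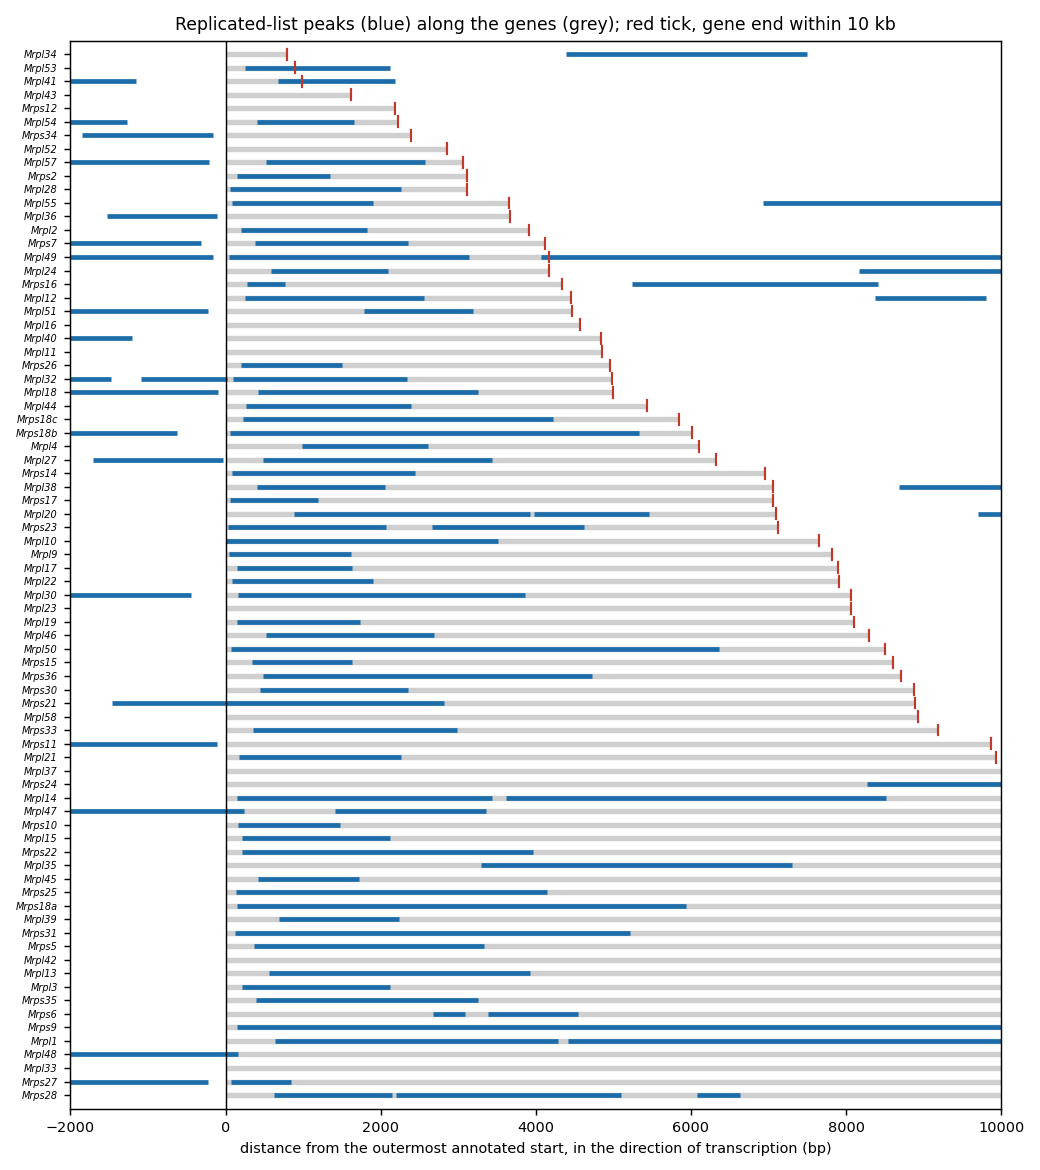
Peaks of the replicated list (blue) along each of the 78 genes (grey), ordered by gene length, from 2000 bp before to 10000 bp after the outermost annotated start (x axis, bp), with a red tick at a gene end within 10000 bp. Most blocks begin just to the right of the start and end before the gene does, and at Mrpl41 and Mrpl53, which are among the shortest genes, they run past the gene end.

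The 2 shortest marked genes differ from this pattern. At Mrpl41 (982 bp) and Mrpl53 (900 bp), both encoding mitochondria-specific large-subunit proteins, the block ran past the gene end. Mrpl41 had the fewest covered bases of any marked member, 309 bp, with 160 bp in replicate 1 and 645 bp in replicate 2. Just outside the threshold stood Mrpl48, with 156 bp in the replicated list, 0 in replicate 1 and 181 bp in replicate 2. That stretch is the end of a block over Rab6a, a Golgi GTPase gene on the opposite strand whose start overlaps Mrpl48.

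Among the 49 members marked in both replicates, 48 had more bases of the first 3 kb under replicate 2's list. The medians were 1304 bp in replicate 1 and 2434 bp in replicate 2, with a median difference of 773 bp. Over all coding genes marked in both the medians were 2139.5 and 2558 bp and the median difference 294 bp, with 95.4% of genes higher in replicate 2. The window ends at 3 kb, so genes already well covered in replicate 1 had less room for a difference. In bases over the whole gene the order turned. The medians were 1325 and 2885 bp for the members, with a median difference of 1324 bp. For coding genes they were 4330.5 and 8046 bp, with one of 2892 bp. Coding genes are longer at the median, so more bases could differ. Relative to replicate 1's medians the gap stayed larger for the members. Over these 49 genes the Spearman coefficient between the replicates was 0.64 for bases (Pearson 0.55) and 0.81 for fold (Pearson 0.84), from libraries that share a control.

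Mrps6, which encodes a conserved small-subunit protein, was the exception, with 2046 bp in replicate 1 and 266 bp in replicate 2. Its gene spans 53958 bp on chromosome 16 and overlaps Slc5a3, a sugar-alcohol transporter gene, and the predicted gene Gm49711. The first covered base in the replicated list lay 2673 bp after its start, the greatest distance of any marked member. The other 4 largest gaps were at Mrpl13 (512 and 2434 bp), Mrpl44 (739 and 2648 bp), Mrps21 (960 and 2797 bp) and Mrpl10 (1254 and 3000 bp), all in favour of replicate 2. Mrpl44 encodes a protein with a ribonuclease III fold, Mrpl10 the protein that anchors the Mrpl12 stalk, and Mrpl13 and Mrps21 conserved proteins of the large and small subunits.

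Replicate 2 alone marked 20 members, and 19 of them had no base of the first 3 kb under replicate 1's list. Of the members marked in replicate 2, 29% were lacking in replicate 1, against 23.6% over all coding genes, 3.70% of cytosolic ribosomal protein genes (3 of 81) and 6.94% of respiratory chain genes (5 of 72). These 20 genes had weaker peaks: their median fold in replicate 2 was 4.70, against 9.72 for the members marked in both. They were also shorter, at a median of 4588 bp against 8296 bp. The share lacking in replicate 1 was near that of all coding genes and above those of both other lists. Whether it goes with fold or gene length was not tested.

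Of the 20, 11 were marked in the replicated list. They are Mrpl4, Mrpl22 and Mrpl55, which encode conserved large-subunit proteins, Mrpl38, Mrpl41, Mrpl45, Mrpl53 and Mrpl54, which encode mitochondria-specific ones, and Mrps2, Mrps16 and Mrps27 of the small subunit. Replicate 2 covered between 487 bp (Mrps16) and 2011 bp (Mrps27) of their first 3 kb. Mrpl45 encodes a protein that tethers the ribosome to the inner membrane at the tunnel exit, and it had the lowest fold of any marked member, 3.42. Its first 3 kb held 0 bp in replicate 1 and 1329 bp in replicate 2.

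The other 9 were unmarked in the replicated list, and 8 of them were marked in the pooled list. Mrpl58, which encodes a peptidyl-tRNA hydrolase built into the large subunit, had 2161 bp in replicate 2, 0 in replicate 1, 1242 bp in the pooled and 0 bp in the replicated list. Mrpl42, Mrpl37, Mrpl40 and Mrpl43, all of mitochondria-specific large-subunit proteins, had 1695, 1456, 1325 and 591 bp in replicate 2. The conserved small-subunit gene Mrps11 had 755 bp and the mitochondria-specific Mrps34 had 675 bp there. The conserved large-subunit genes Mrpl34 and Mrpl36 had 347 and 308 bp in replicate 2, and Mrpl34, the shortest member at 789 bp, was the 1 gene not marked in the pooled list. For these 9 genes the call depended on which list was read.

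Of the 18 unmarked members, 5 had no base of the gene under any of the 4 lists. Besides Mrpl11, Mrpl16 and Mrpl23, whose promoters are printed above, these were Mrpl52, a mitochondria-specific large-subunit gene on chromosome 14 from 54426909 to 54429756, and Mrps12. Mrps12, on chromosome 7 from 28739641 to 28741820, encodes the conserved protein of the decoding centre. Its start lies 171 bp from that of Sars2, which encodes the mitochondrial seryl-tRNA synthetase and reads the other way, and Sars2 had no peak in its first 3 kb in any list either. The starts of Mrpl52 and Mrps12 were CpG-rich and those of Mrpl11, Mrpl16 and Mrpl23 were not. Over all 18 unmarked members, 12 had a CpG-rich start, beside 50 of the 60 marked members and 44.4% of all coding genes.

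Another 4 unmarked members carried peaks at a start inside the gene. At Mrpl48 these covered 724 bp from a start 25191 bp in, besides the 156 bp at its outermost start. The other 3, Mrpl33, Mrpl35 and Mrps24, encode conserved proteins and had 0 bp in the first 3 kb from the outermost start in every list. From another annotated start, 17217 bp further in, Mrpl33 had 2309 bp covered. Mrpl35 had 2916 bp from a start 3206 bp in, and Mrps24 had 1867 bp from one 7990 bp in. For these 3 genes the RefSeq start lies 17016, 3185 and 7979 bp from the outermost one, so the unmarked call came from a distant annotated 5′ end. Counted from whichever annotated start was most covered, 64 of 78 members and 32.9% of coding genes were marked. Counted from the RefSeq start, 55 of the 69 members with one were marked in the replicated list, against 33.2% of coding genes with one. Replicate 1 gave 47 members, against 29.9%, and replicate 2 gave 63, against 38.8%.

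Many of these genes start close to a gene of the opposite strand. An opposite-strand coding start lay within 1 kb at 33 members (42.3%), against 10.9% of coding genes. At 18 of them the starts lay apart, back to back, and at 15 the genes overlapped at their starts. Of these 33 members 25 (75.8%) were marked, against 54.9% of coding genes with such a neighbour. Both genes were marked at 15 members, the mitochondrial ribosomal gene alone at 10, the partner alone at 5 and neither at 3. At 7 members 1 block covered bases of both windows.

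The closest pair was Mrpl54 and Apba3, an amyloid precursor-binding adaptor gene, with starts 25 bp apart and 1257 and 1446 bp covered. Mrps18c lies 28 bp from Helq, a DNA helicase gene, and had 2772 bp against 0 at Helq. Mrps34 lies 28 bp from Eme2, a nuclease subunit gene, and had 0 bp against 1680 bp at Eme2. Which gene of the pair was covered thus differed between pairs of the same spacing. Mrpl36 lies 30 bp from Ndufs6, a subunit of respiratory complex I, and had 0 bp against 1918 bp at Ndufs6. That spacing holds for the outermost start of Mrpl36, and its RefSeq start lies 2496 bp away. From the RefSeq start Mrpl36 had 0 bp in the replicated list and 782 bp in replicate 2. Mrps18b and Ppp1r10, a phosphatase regulator gene 44 bp away, had 2946 and 2075 bp. In 1 case both partners are members: Mrpl46 and Mrps11 overlap at their starts by 413 bp, and the replicated list covered 2164 bp of Mrpl46 and 0 of Mrps11. Replicate 1 covered 1111 and 0 bp of them and replicate 2 covered 2293 and 755 bp, so Mrpl46 had the wider coverage in both.

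Short sequence motifs of factors known for nuclear genes of mitochondrial proteins were counted in the RefSeq promoters, on both strands, in 300 bases each. The ETS motif CCGGAAG was found in 24 of 69 members (34.8%) and in 12.3% of 16538 coding promoters. The NRF1 motif CGCATGCG, which reads the same on both strands, was found in 7 of 69 (10.1%) and in 2.66%. The YY1 motif AAGATGGC was found in 12 of 69 (17.4%) and in 3.27%. At least 1 of the 3 was present in 36 members (52.2%) and 17% of coding promoters, and no matches of different motifs overlapped in a member. A match describes the letters and not binding of a factor.

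The NRF1 motif is shown because all 7 genes that hold it were marked. Of the 69 members with a promoter 52 were marked and 17 were not. Most members taken without regard to the motif would thus be marked too, and the split was not tested. The following 30-base stretches are from RefSeq (GRCm38.p6), on the strand of the gene, with the match in capitals. They lie at chr11:97041436-97041465 (Mrpl10, plus), chr7:105811079-105811108 (Mrpl17, minus), chr11:58171621-58171650 (Mrpl22, plus), chr13:14613042-14613071 (Mrpl32, minus), chr16:84735350-84735379 (Mrpl39, minus), chr3:94443298-94443327 (Mrpl9, plus) and chr17:35916646-35916675 (Mrps18b, minus).
Mrpl10: gcccagctccaCGCATGCGcatagcggccc
Mrpl17: ccgagttactgCGCATGCGtcctctgagac
Mrpl22: gcctcggactgCGCATGCGtatagtcagcc
Mrpl32: ggcggacttaaCGCATGCGctcagcccgcg
Mrpl39: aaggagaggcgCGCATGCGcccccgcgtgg
Mrpl9: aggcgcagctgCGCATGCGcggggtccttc
Mrps18b: aaacggcccgaCGCATGCGcactgggagca
The matches begin between 224 bases before the start (Mrps18b) and 10 bases before it (Mrpl17), and Mrpl32 holds another 86 bases before its start. The peaks in replicate 1 covered 1254 bp of the first 3 kb at Mrpl10, 710 bp at Mrpl17, 0 at Mrpl22, 1797 bp at Mrpl32, 1364 bp at Mrpl39, 916 bp at Mrpl9 and 2597 bp at Mrps18b. All but Mrpl22 were thus marked in both replicates.

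The YY1 motif is shown because it was held by 5 of 52 marked and 7 of 17 unmarked members, a split seen before the motif was chosen for display. From the RefSeq starts, at which Mrpl35 and Mrps24 are marked, the counts were 7 of 55 and 5 of 14. At 8 of the 12 genes the match lay after the start, between 11 bases (Mrps18a) and 36 bases (Mrps24) from it. Those 8 stretches of 30 bases follow, the marked genes first, with the same conventions. They lie at chr19:6057721-6057750 (Mrpl49, minus), chr17:46111004-46111033 (Mrps18a, plus), chr13:99344789-99344818 (Mrps27, plus), chr11:115604147-115604176 (Mrps7, plus), chr6:71823743-71823772 (Mrpl35, minus), chr4:107066822-107066851 (Mrpl37, minus), chr10:95501904-95501933 (Mrpl42, minus) and chr11:5707652-5707681 (Mrps24, minus).
Mrpl49: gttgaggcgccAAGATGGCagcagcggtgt
Mrps18a: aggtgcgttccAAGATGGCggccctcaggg
Mrps27: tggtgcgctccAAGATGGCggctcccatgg
Mrps7: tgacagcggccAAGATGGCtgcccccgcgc
Mrpl35: aggcaggctgcAAGATGGCggcttccatct
Mrpl37: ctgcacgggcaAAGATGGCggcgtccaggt
Mrpl42: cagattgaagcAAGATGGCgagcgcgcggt
Mrps24: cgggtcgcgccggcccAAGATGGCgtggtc
Mrpl37 and Mrpl42 were marked in replicate 2 only, and of the other genes printed here Mrps27 was as well. The ETS motif was held by 18 of 52 marked and 6 of 17 unmarked members. These are counts of letters in genes already sorted by their peaks and were not tested.

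Other genes of mitochondrial translation were read in the same way. The 5 mitochondrial ribosome genes with other symbols were all marked in the replicated list and in both replicates. They are Dap3, Chchd1, Aurkaip1, Ptcd3 and Gadd45gip1, of which Dap3, the gene of a GTP-binding small-subunit protein, had the most covered bases (6928 bp), before Ptcd3 (3880 bp) and Aurkaip1 (1470 bp). Of 14 translation factor genes 11 were marked (78.6%), 9 in replicate 1 and 14 in replicate 2. Lrpprc, which stabilises mitochondrial messenger RNAs, had 2618 bp covered in the first 3 kb and 12860 bp in the gene. Its partner gene Slirp had 3000 and 5317 bp, and the release factor gene Mtrf1l had 2680 and 4057 bp. The unmarked factors were the elongation factor gene Tsfm, the recycling factor gene Mrrf and Guf1, which encodes a translational GTPase.

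Lower shares were found for genes whose products assemble the ribosome or charge its transfer RNAs. Of 22 assembly genes 11 were marked (50%) in the replicated list and in replicate 1, against 30.3% and 27.2% of coding genes. In replicate 2 15 were marked (68.2%), against 35.6%. Among the unmarked ones, chosen after their values were seen, are the GTPase gene Mtg1 and the ribosomal RNA methyltransferase genes Mrm1, Mrm2, Tfb1m and Nsun4, with 0 bp in every list. Of 17 mitochondrial aminoacyl-tRNA synthetase genes 5 were marked in the replicated list (29.4%), near the 30.3% of all coding genes. These were Fars2, Hars2, Mars2, Rars2 and Yars2, with the most covered bases of the gene at Fars2 (8542 bp), Mars2 (6920 bp) and Yars2 (2087 bp). Replicate 1 marked 5 of the 17 (29.4%, against 27.2% of coding genes). Replicate 2 marked 9 (52.9%, against 35.6%) and the pooled list 7 (41.2%, against 34.3%). The lists are short and the difference between them was not tested.

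**Figure D5:**
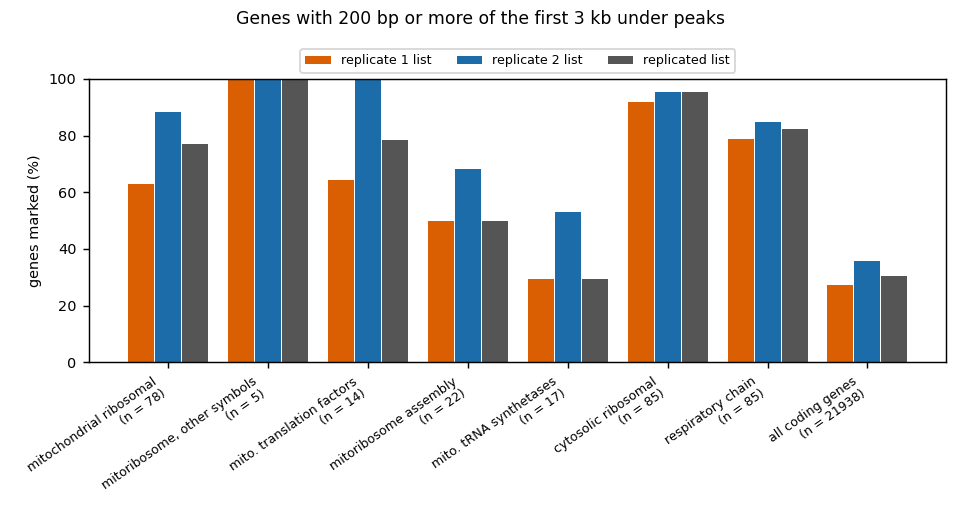
Percent of genes marked (y axis, from 0) in replicate 1's, replicate 2's and the replicated list, for the mitochondrial ribosomal genes, related lists and all coding genes, with the number of genes under each name. The mitochondrial ribosomal genes stand at 62.8%, 88.5% and 76.9%, and the mitochondrial aminoacyl-tRNA synthetases at 29.4% in the replicated list beside 30.3% of all coding genes.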

How the data were processed

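H3K79me2 ChIP-seq of unstimulated bone-marrow-derived macrophages gave 4 deposited peak lists on mm10 from 2 replicates, per the deposited text notes. The aligner is, like the caller, calling thresholds and replication rule, not given in the sources used here. Library depth is unknown. The fold of each peak over the control is the authors' deposited value. The deposited −log10 q of each peak is also the authors', and was used to filter peaks at a q of 0.05 in an alternative.

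Peaks were merged within each list and laid over GENCODE M21 coding genes. Windows, the 200 bp rule and the replicated list as main list follow the report's definitions. CpG-rich starts had, over the 500 bp either side, 0.6 or more of the CpG expected and 50% or more GC. Promoters came from RefSeq (GRCm38.p6), which matched 69 of the 78 genes, all but Mrpl4, Mrpl13, Mrpl15, Mrpl19, Mrpl38, Mrpl54, Mrps28, Mrps34 and Mrps35. Python 3.11.15, numpy 2.4.6, scipy 1.17.1, pysam 0.24.0 and samtools 1.23.1 were used. The interval code was tested on simulated data and equalled a count over single bases for 2000 of 2000 genes.

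The text names unmarked genes, genes marked in 1 replicate, the 10 of highest fold, the 10 with most covered bases, the 5 of lowest covered share, the 5 with the largest gap between replicates, the 5 closest opposite-strand pairs, and Mrpl12, Mrpl58, Mrps12, the Mrps18 genes and Mrps30. Of related lists of up to 20 genes it names the unmarked ones and the 3 most covered, except that the unmarked synthetase genes are not listed, since not all that this rule takes are reported here. Others were named after their values were seen, as were the genes chosen for the NRF1 and YY1 stretches. The members, lists and rules were chosen with earlier results of these data known. Alternatives were the other lists, each replicate's list alone, other minimums and windows, other annotated starts, peak filters by fold and q, and genes with no coding neighbour.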

Additional observations from a re-analysis of the deposited data

How the results depend on the processing

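The 60 of 78 marked genes became 22 when peaks below the median fold were dropped, and the background 22.3% of coding genes; the counts then were 17 of 51 large-subunit and 5 of 27 small-subunit, a turned order, 13 conserved, 9 mitochondria-specific, 3 other ribosome, 7 assembly, 6 translation factor and 1 synthetase gene. The median first 3 kb of all 78 members and their median covered share were then 0, against 1734 bp and 23.2%. Restricting to genes with no other coding gene near left 28 members marked of 35, with 13 large-subunit, 15 small-subunit, 18 conserved and 10 mitochondria-specific genes. Of the other lists, 2 other ribosome, 2 assembly, 7 translation factor, 2 synthetase, 52 cytosolic ribosomal and 35 respiratory chain genes were marked. Fewer genes are read under this restriction. How many were read is not given for these classes and lists, so the counts are not shares. The other alternatives kept the count of marked members between 49 (replicate 1's list) and 69 (replicate 2's list), with 61, 57 and 55 at minimums of 1, 500 and 1000 bp (30.7, 29.9 and 28.7% of coding genes) and 56 in a window of 1 kb (25.02% of coding genes), where the median was 603.5 bp. With 1 replicate left out, the median ran from 842.5 to 1955 bp, the covered share from 9.65 to 27.7% and marked synthetases from 5 to 9. Of 53 named genes, 29 moved by more than the replicate spread without replicate 2 and 10 without replicate 1, 17 with the fold filter, 25 with the 1 kb window, 7 with the best annotated start, 6 with the pooled list and none with the q filter. From the RefSeq start, an alternative chosen after seeing the data, 55 of 69 were marked against 52. No paired analysis was possible because there is only 1 group. What depth limits is unknown, since no counts are in the files.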
